A study of Homo sapiens with 3 samples.

Results

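This is the comparison of 1 library from glutamine-deficient 95D cells with 1 library from control 95D cells. 95D is an established human lung cancer line grown in DMEM, the usual bicarbonate-buffered culture medium. The members are all 14333 entries that the submitters' table gives for this pair, in 12306 distinct regions, naming 5928 genes, with none left out here for its value. They come from 2 of the 3 libraries of the series. The glutamine-deficient cells spent 24 h in complete medium and then 48 h in glutamine-free DMEM with 10% dialyzed serum. The control cells are labelled as kept for 48 h in control conditions, whose medium and serum are not given further. Per the labels' protocols, RNA was captured from lysates on beads carrying DAMER, a long non-coding RNA made in vitro and biotinylated. The sample titles name RNA sequencing only, so whether the control library also went through that capture is not settled by the labels.

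Glutamine is the main nitrogen donor of cultured cells, and its lack activates the kinase GCN2, which lets the mRNA of the transcription factor ATF4 be translated. The bait capture asks which RNAs stay with DAMER. RNAs of cytosol, nucleus and mitochondria all enter a whole lysate, and mitochondrial mRNAs and rRNAs are abundant there because each cell holds many copies of the mitochondrial genome.

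The deposited values are in RPM, reads scaled to one common library size. The low values moved in fixed steps, so fragments (read pairs) could be recovered from them: 18301607 in the glutamine-deficient library and 3781862 in the control. ATF4 with its pseudogenes ATF4P3 and ATF4P4, called here the ATF4 family, held 18287157 fragments or 99.92% of the glutamine-deficient library. In the control the same family held 958 fragments or 0.0253%. This left 14450 fragments outside the family in the glutamine-deficient library against 3780904 in the control. Every other gene was therefore read on these small remainders. With 1 library a side each interval below covers counting error only and no spread between cultures. The totals follow from the steps, so 14450 is a small difference between large numbers and moves with any rounding of the step. The step was 0.05464 RPM in the glutamine-deficient library, and whether it was rounded is not known. Shares and ratios on all fragments outside the family carry this uncertainty, which their intervals leave out. Fragment counts of listed regions outside the family do not rest on that difference. Intervals are exact binomial intervals at 95%.

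The pseudogenes were set aside together with ATF4 because their letters are nearly those of its coding sequence, and the sources used here do not say how reads that match several places were counted. ATF4P3 (chr17:76225751-76226806, minus strand, inside RNF157) is 97.5% identical to the ATF4 coding sequence over 1056 bases, with 26 differences. ATF4P4 (chr11:113789231-113791366, plus strand) is 96.9% identical over 1051 aligned positions. The 100 bases of each alignment that hold the most differences are shown from the GENCODE 29 transcripts (GRCh38), 5′ to 3′, with the differing bases in capitals. The first pair is positions 238 to 337 of the ATF4 coding sequence.
ATF4: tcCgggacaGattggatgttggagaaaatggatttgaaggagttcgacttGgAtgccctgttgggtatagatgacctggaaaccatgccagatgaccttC
ATF4P3: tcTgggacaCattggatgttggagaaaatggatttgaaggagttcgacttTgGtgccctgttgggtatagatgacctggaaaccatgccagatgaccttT

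The second pair is positions 104 to 203 of the ATF4 coding sequence.
ATF4: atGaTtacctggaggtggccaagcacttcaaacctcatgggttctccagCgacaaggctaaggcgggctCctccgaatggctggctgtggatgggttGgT
ATF4P4: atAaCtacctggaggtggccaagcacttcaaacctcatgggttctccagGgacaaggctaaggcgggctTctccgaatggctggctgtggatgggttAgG

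Even these stretches differ at only 5 and 6 positions, although no window of 150 bases, the read length, is free of differences in either alignment. ATF4 itself (chr22:39519695-39522685) stood at 998557 RPM in the glutamine-deficient library and 237 RPM in the control. The region shared by ATF4P3 and its host gene RNF157 stood at 531 RPM against 6.48 RPM, from 9715 and 24 fragments. ATF4P4 stood at 123 RPM against 9.78 RPM, from 2244.5 and 36.5 fragments. Per 1000 ATF4 fragments, ATF4P3 had 0.532 (0.521 to 0.542) in the glutamine-deficient library and 26.7 (17.0 to 40.0) in the control. ATF4P4 had 0.123 (0.118 to 0.128) and 40.7 (28.4 to 56.6). The pseudogenes thus stood higher in the glutamine-deficient library in RPM, yet held a smaller part of the family there.

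On the deposited scale these were the only genes on the high side. With log2(RPM + 1) and a filter of 1 RPM in either library, the 4 genes of the ATF4 family regions, RNF157 included, passed 2-fold upward (0.0675% of 5928 genes), and 5924 (99.9%) passed it downward. A gene that lies lower here is therefore no different from the background of the list. Of the 12306 regions, 12264 had 0 fragments in the glutamine-deficient library, as had 5882 of the 5928 genes. A count of 0 there allows 3 fragments, or 0.164 RPM. In these bulk lysates less of an RNA in each cell and fewer cells that hold it cannot be told apart. RPM are shares of a library, so a lower value also cannot be told apart from a larger part taken by the ATF4 family. Nor can it be told apart from a difference in capture on the DAMER beads.

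Outside the family, only 158.5 glutamine-deficient fragments lay in listed regions, against 831211 in the control. They came from 39 regions: 8 mitochondrial, 28 of named nuclear genes and 3 that name no gene. The other 14291.6 glutamine-deficient fragments lay in no listed region, 98.9% of those outside the family, against 78.0% in the control. The sources used here do not give how the regions were chosen. With the exception of 2 regions, every listed region had at least 9.5 control fragments. The values also carry an offset of 0.5 fragment in each region, read from their lowest steps. If these offsets also entered the library totals, which the sources used here do not say, those of the listed regions alone would account for 42.6% of the 14450 fragments.

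For this reason 2 denominators were set side by side: all fragments outside the family, and only those in listed regions outside it. A further measure needs no denominator and compares classes of region within this pair of libraries: how many glutamine-deficient fragments were found per 1000 control fragments of the same regions, called the kept rate below. Its level follows the depth of both libraries, so only its differences between regions are read.

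The mitochondrial genome supplied most of the listed fragments that remained. Its regions held 99.5 of the 158.5, or 62.8% (54.8 to 70.3), against 97223.5 of 831211, or 11.7% (11.6 to 11.8), in the control. The 158.5 include 12 fragments of a RAD51B region with 1 control fragment and 15 of a region without a gene, with 0. Both may be listed only for their glutamine-deficient counts, and without them the mitochondrial part would be larger. Named nuclear genes held 42 fragments, or 26.5% (19.8 to 34.1), against 698526, or 84.0% (84.0 to 84.1). On the listed denominator the mitochondrial share was thus 5.37 times that of the control (4.36 to 6.53), and the nuclear share 0.315 times (0.227 to 0.426). On all fragments outside the family the order turned: the mitochondrial share was 0.689% (0.560 to 0.837) against 2.57% (2.56 to 2.59), a ratio of 0.268 (0.218 to 0.326). The nuclear share on that denominator was 0.291% against 18.5%, a ratio of 0.0157 (0.0113 to 0.0213). No direction against the control can therefore be given for the mitochondrial regions as a whole. What does not depend on the denominator is the relation between both classes: the kept rate was 1.02 per 1000 (0.832 to 1.25) for mitochondrial regions and 0.0601 for named nuclear regions (0.0433 to 0.0813), a 17.0-fold difference (11.8 to 25.0). Without RAD51B, which supplied 12 of the 42 nuclear fragments, the difference was 23.8-fold (15.7 to 37.1).

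**Figure D1:**
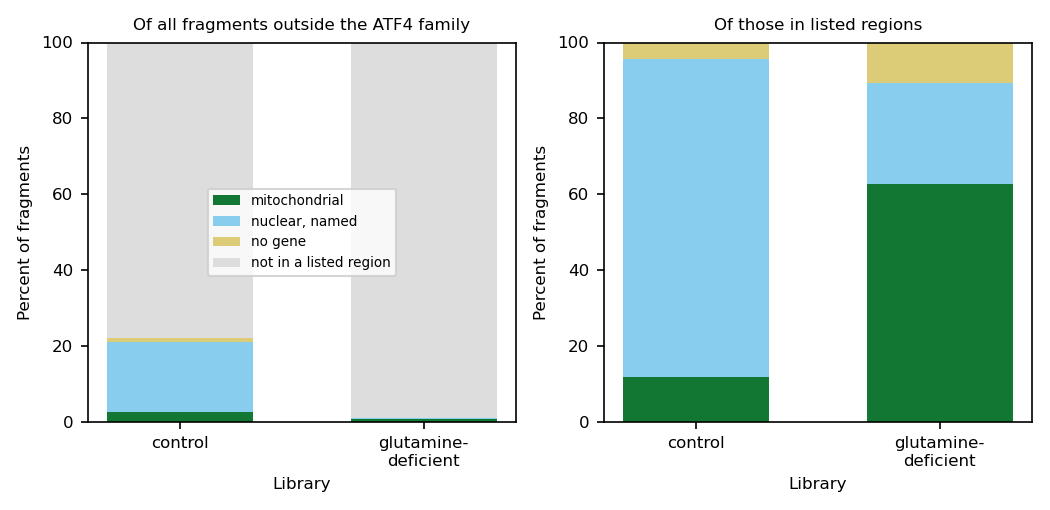
Makeup of the fragments outside the ATF4 family in the control and the glutamine-deficient library, in percent of all such fragments (left) and of those in listed regions (right), by class of region. Mitochondrial regions fill 2.57% and 0.689% of the left bars but 11.7% and 62.8% of the right bars.

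Of the 37 genes annotated on the mitochondrial chromosome, 10 were listed: 8 of the 13 mRNA genes, both rRNA genes and 0 of the 22 tRNA genes. MT-ND2, MT-ND3, MT-ND5, MT-ND6 and MT-CYB are the mRNA genes that were not listed, and their levels were not analysed here. The listed genes fell in 10 regions, since some regions cover neighbouring genes and some genes have several regions. The regions carry no coordinates in the files, and positions given for genes are those of GENCODE 29.

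MT-ND1 (chrM:3307-4262), a core subunit of respiratory complex I, had 17 fragments in the glutamine-deficient library and 5824 in the control, 0.956 RPM against 1540 RPM. Its kept rate was 2.92 per 1000 (1.70 to 4.68), the highest of the mitochondrial genes. MT-ND4 with MT-ND4L, further complex I subunits on one transcript, had 17.5 fragments against 18873.5, or 0.927 per 1000 (0.545 to 1.48). Both complex I regions had nearly the same number of fragments in the glutamine-deficient library, although the control held over 3 times as many of MT-ND4 with MT-ND4L: the kept rate of MT-ND1 was 3.15 times higher (1.52 to 6.52).

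The single region of MT-ATP6, MT-ATP8 and MT-CO3, which encode subunits of ATP synthase and of cytochrome c oxidase, had the most fragments of any region outside the ATF4 family, 33 against 22058. Its RPM was 1.83 against 5833, and its kept rate was 1.496 per 1000 (1.03 to 2.10). MT-CO2, another subunit of cytochrome c oxidase, had 14 fragments against 15995.5, or 0.875 per 1000 (0.478 to 1.47). MT-CO1, the catalytic subunit of that enzyme, was the mitochondrial gene with the most control fragments, 29255 over 3 regions, and had 17 in the glutamine-deficient library, or 0.581 per 1000 (0.338 to 0.931). Its regions had 6, 5 and 6 fragments against 11392.5, 11124.5 and 6738, and their kept rates of 0.527, 0.449 and 0.890 per 1000 lay within each other's intervals.

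The rRNA genes kept almost nothing, from lower control levels. MT-RNR1, the small ribosomal RNA of the mitochondrion, had 1 fragment against 2088, or 0.479 per 1000 (0.0121 to 2.67). MT-RNR2, the large one, had 0 fragments against 3129.5 over 2 regions, with an upper limit of 1.18 per 1000. At the mean mitochondrial rate 3.20 fragments would have been found for MT-RNR2 and 2.14 for MT-RNR1. The mRNAs together kept 5.59 times the rate of the rRNAs, with an interval of 0.979 to 223 that includes equal rates. Ribosomal RNA was depleted from both libraries per the labels' protocols.

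Among the 21 pairs of the 7 mitochondrial units, 7 had an interval of the ratio of kept rates that lay wholly above 1. MT-ND1 lay above the MT-ATP6, MT-ATP8 and MT-CO3 region (1.95-fold, 1.02 to 3.60), MT-ND4 with MT-ND4L, MT-CO2 (3.34-fold, 1.55 to 7.31), MT-CO1 (5.02-fold, 2.41 to 10.5) and MT-RNR2. The MT-ATP6, MT-ATP8 and MT-CO3 region lay above MT-CO1 (2.57-fold, 1.39 to 4.93) and MT-RNR2. The intervals are not adjusted for the number of pairs. MT-ND4 with MT-ND4L, MT-CO2 and MT-CO1, which follow each other in the order of kept rates, did not separate from each other at this depth.

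**Figure D2:**
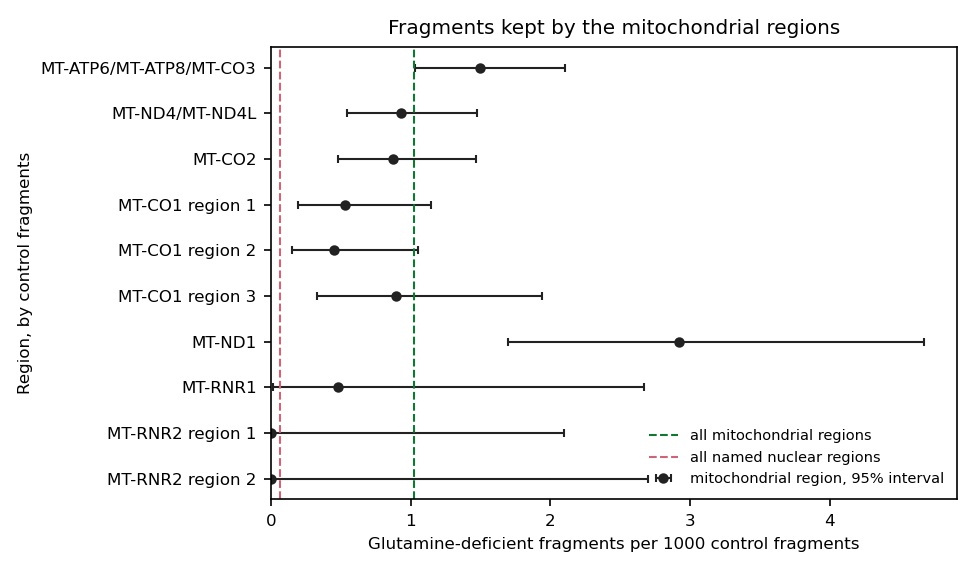
Glutamine-deficient fragments per 1000 control fragments in each of the 10 mitochondrial regions (points, with exact 95% counting intervals), ordered by control fragments. MT-ND1 lies at 2.92 and the MT-RNR2 regions at 0; the dashed lines mark all mitochondrial regions (1.02) and all named nuclear regions (0.0601).

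Against the control, single mitochondrial genes shared the dependence on the denominator. On all fragments outside the family, MT-CO1 (0.152, 0.0886 to 0.243), MT-CO2 (0.229, 0.125 to 0.384), MT-ND4 and MT-ND4L (0.243, 0.143 to 0.386) and MT-RNR2 had whole intervals more than 2-fold below the control. MT-ND1 had a ratio of 0.764 (0.445 to 1.22), an interval that includes the control share, and the MT-ATP6 region one of 0.391 (0.269 to 0.550). The background is 25 of 5924 genes (0.422%) lower by that rule. Some of these genes share a region, and with the listed region as unit 17 were lower. On listed fragments only, MT-ND1 (15.3, 8.91 to 24.5), the 3 genes of the MT-ATP6 region (7.85, 5.40 to 11.0), MT-ND4 and MT-ND4L (4.86, 2.86 to 7.74) and MT-CO2 (4.59, 2.51 to 7.70) had whole intervals more than 2-fold above it. There the background is 18 of 5924 genes (0.304%) higher. MT-ND4, MT-ND4L and MT-CO2 thus passed 2-fold in opposite directions.

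Of 5914 named nuclear genes outside the family, 33 kept any fragment in the glutamine-deficient library, in 28 of 11602 regions (0.241%). By annotation, 23 of the 28 regions belong to a protein-coding gene, 2 to processed pseudogenes, 1 to an unprocessed pseudogene, 1 to a long intergenic RNA and 1 to an antisense RNA. Of the 28 regions, 24 had 1 fragment and 3 had 2. Single fragments do not separate one gene from another, since most genes of the same control level had 0.

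RAD51B, a gene of DNA repair by homologous recombination, had the most fragments of the named nuclear genes. One of its 2 listed regions had 12 fragments in the glutamine-deficient library and 1 in the control, 0.683 RPM against 0.397 RPM, while the other had 0 against 43. With 1 control fragment, where every other listed nuclear region had at least 9.5, the first may stand in the table only for its glutamine-deficient count, so its values are a description and support no difference between the conditions. This was the only named nuclear region outside the ATF4 family with more fragments in the glutamine-deficient library than in the control. The gene as a whole had 12 fragments against 44, a share outside the family 71.4 times that of the control (34.3 to 137). All 12 come from the first region, so this ratio is a description under the same limit. In RPM, over the whole libraries, the gene was among the 5924 lower genes. RAD51B spans 910440 bases (chr14:67819779-68730218, plus strand), and the files do not place its regions within it.

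A count of 2 was found in 3 regions. SLC38A10 (chr17:81245000-81295547, minus strand), a member of the SLC38 family of amino acid transporters, had 2 against 24.5, a share ratio of 21.4 (2.45 to 85.8). The others are processed pseudogenes. ENSG00000223886 (chr7:105530209-105530671, plus strand) had 2 against 17, a share ratio of 30.8 (3.45 to 130). TPT1P9 (chr9:118082869-118083382, minus strand) had 2 against 190, a share ratio of 2.75 (0.331 to 10.1). RAD51B, SLC38A10 and ENSG00000223886 were the 3 of 5924 genes (0.0506%) whose whole interval lay more than 2-fold higher on shares outside the family, and all 3 passed on the listed denominator as well. With an interval of 99% RAD51B alone passed, and the calls of SLC38A10 and ENSG00000223886 rest on 2 fragments each. The RAD51B call comes wholly from its region with 1 control fragment, which may be listed only for its glutamine-deficient count. It therefore supports no difference between the conditions at either interval.

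Because a pseudogene can take reads of its parent gene, the kept pseudogenes are shown beside their parents. TPT1P9 is 95.3% identical to the coding sequence of TPT1, which encodes the translationally controlled tumour protein, over 514 bases with 24 differences. Positions 3 to 102 of both hold 12 of them, in capitals (TPT1P9 at chr9:118083281-118083380, minus strand).
TPT1: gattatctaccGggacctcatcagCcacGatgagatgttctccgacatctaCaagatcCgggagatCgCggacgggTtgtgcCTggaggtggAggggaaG
TPT1P9: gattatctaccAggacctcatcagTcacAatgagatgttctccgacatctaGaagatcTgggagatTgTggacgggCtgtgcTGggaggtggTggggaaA

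ENSG00000223886 is 93.6% identical over 467 aligned positions to the coding sequence of RNF181, an E3 ubiquitin ligase. Positions 278 to 377 of the RNF181 coding sequence hold 6 of the differences (pseudogene at chr7:105530484-105530583, plus strand).
RNF181: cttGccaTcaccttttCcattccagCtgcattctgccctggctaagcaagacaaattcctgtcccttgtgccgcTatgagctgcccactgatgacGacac
ENSG00000223886: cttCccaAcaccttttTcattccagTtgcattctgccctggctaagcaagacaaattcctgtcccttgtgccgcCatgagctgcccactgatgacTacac

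MTATP6P1 (chr1:633696-634376, plus strand) is a copy of the mitochondrial gene MT-ATP6 in the nuclear genome, 98.5% identical to it over 681 bases with 10 differences. Positions 93 to 192 hold 4 of them (MT-ATP6 at chrM:8619-8718 and MTATP6P1 at chr1:633788-633887, both plus strand).
MT-ATP6: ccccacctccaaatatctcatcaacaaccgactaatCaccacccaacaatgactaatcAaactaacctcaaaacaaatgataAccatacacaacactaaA
MTATP6P1: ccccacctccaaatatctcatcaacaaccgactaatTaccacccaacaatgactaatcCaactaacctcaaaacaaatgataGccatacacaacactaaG

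MTATP6P1 had 1 fragment against 2570, 0.0820 RPM against 680 RPM. Its kept rate of 0.389 per 1000 (0.00985 to 2.17) overlapped both that of the MT-ATP6 region and that of all nuclear regions. TPT1 itself was listed with 206.5 control fragments in 3 regions and 0 in the glutamine-deficient library, and RNF181 was not listed. Whether reads of the parents were counted on these pseudogenes was not tested, since the files hold no reads.

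The remaining kept regions had 1 fragment each, from 12 to 308.5 control fragments, given after each name. Of genes acting on RNA, NORAD (97) is a non-coding RNA that binds PUMILIO proteins, CNOT1 (45.5) the scaffold of the CCR4-NOT deadenylase and DHX34 (32.5) a helicase of nonsense-mediated decay. DAZAP1 (51) is an RNA-binding protein, FAM98A (91) is found with the tRNA ligase complex, and PRRC2A (30.5) is also reported to bind RNA. Of genes of transcription, POLR2F (24) is an RNA polymerase subunit and MAZ (90.5) a zinc-finger factor. Of genes handling proteins, IPO9 (59) is a nuclear import receptor, UBA1 (41) the main ubiquitin-activating enzyme and FKBP2 (44) a prolyl isomerase of the endoplasmic reticulum. Of genes of metabolism and membranes, ALDOA (308.5) is the glycolytic aldolase, SLC25A39 (51) a mitochondrial glutathione carrier, PICALM (41) a clathrin assembly protein, RAB31 (17.5) a trafficking GTPase and ANXA5 (21) an annexin. ABL2 (30) is a tyrosine kinase and PPFIA1 (20) a liprin of cell adhesion sites. Of genes of the DNA damage response, GADD45A (77.5) is a stress-induced growth arrest gene and EXO1 (19) an exonuclease of DNA repair. The regions of DHX34, PRRC2A, MAZ, FKBP2 and ALDOA are shared with ENSG00000288827, ENSG00000289282, ENSG00000259952, ENSG00000286264 and ENSG00000285043 in turn, so the fragment can belong to either gene. C15orf39 (51.5), the antisense RNA ENSG00000272114 (41) and PBDC1 (12) complete the list. In each of these the glutamine-deficient library stood at 0.0820 RPM, the value of 1 fragment with the added 0.5.

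**Figure D3:**
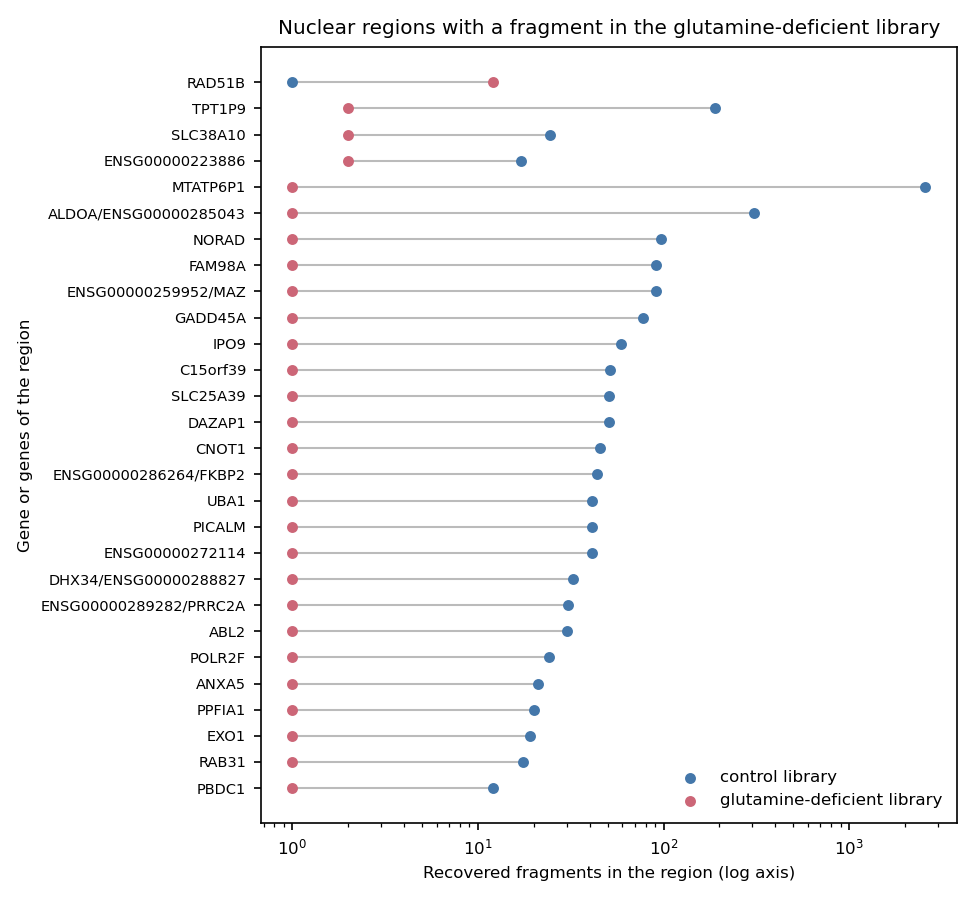
Recovered fragments of the 28 named nuclear regions that had any in the glutamine-deficient library, in the control and the glutamine-deficient library (log axis). RAD51B, with 12 against 1, is the only one whose glutamine-deficient point lies to the right; 24 regions stand at 1.

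The nuclear kept rate was lower in classes of higher control level, though not at every step. Control fragments both set the classes and divide the rate, so this course cannot be read as a trait of the genes. Regions of over 9 and up to 20 control fragments kept 0.141 per 1000 (0.0519 to 0.308), with 6 fragments in 5 of 2406 regions. Those of over 20 and up to 50 kept 0.0600 (0.0310 to 0.105) and those of over 50 and up to 100 kept 0.0646 (0.0279 to 0.127). Above 100 and up to 300 control fragments the rate was 0.0168 (0.00203 to 0.0606), from the 2 fragments of TPT1P9 among 774 regions. Above 300 and up to 1000 it was 0.0164 (0.000416 to 0.0915), from 1 fragment among 124 regions. Among the 28 regions of over 1000 control fragments MTATP6P1 alone kept a fragment, a rate of 0.00657 per 1000 (0.000166 to 0.0366). The mitochondrial regions all had over 1000 control fragments, and against nuclear regions above 1000 their kept rate was 156-fold higher (27.3 to 6218). That ratio and its interval rest on the 1 fragment of MTATP6P1, the nuclear copy of MT-ATP6. Whether this fragment came from a mitochondrial RNA was not tested. How the choice of listed regions moves with this course was not tested.

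**Figure D4:**
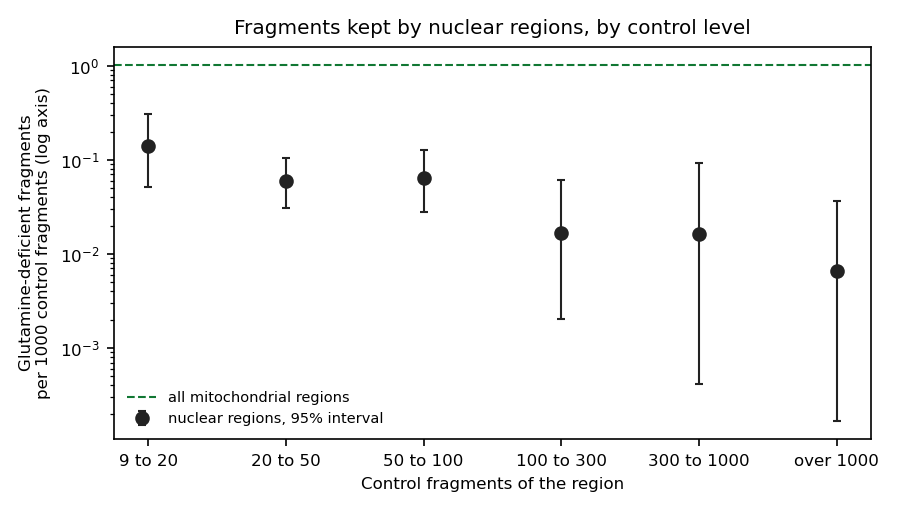
Glutamine-deficient fragments per 1000 control fragments of named nuclear regions (points, with exact 95% counting intervals, log axis), by control fragments of the region. The rate goes from 0.141 in the lowest class to 0.00657 in the highest; the dashed line marks all mitochondrial regions at 1.02, and the RAD51B region with 1 control fragment is not drawn.

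The 15 genes named for the most control fragments and none in the glutamine-deficient library held abundant non-coding RNAs and 2 protein-coding genes. 7SK, annotated also as RN7SK, which keeps P-TEFb, a factor of transcription elongation, in an inactive state, had 55249 control fragments, 14609 RPM, and 0 in the glutamine-deficient library. At its share of the control, 211 fragments would have been found among all those outside the family, 10.5 among the listed ones, and 3.32 at the mean nuclear kept rate. That mean leans on regions of low control level: at the rate without RAD51B 7SK would have had 2.37 fragments, and at that of nuclear regions above 1000 control fragments 0.363. The last value rests on the 1 fragment of MTATP6P1. The share of 7SK was below 0.0175 times that of the control on the first denominator and below 0.350 times on the second. MALAT1, a long non-coding RNA of nuclear speckles, and TALAM1, its antisense partner, were listed in the same regions with 21061 control fragments, and reads of either strand cannot be told apart here. Their upper limits were 0.0458 and 0.919 times the control share.

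The others lay lower on the first denominator only. RPPH1, the RNA of RNase P, had 9353 control fragments in a region shared with ENSG00000259001, RMRP, the RNA of RNase MRP, had 7071, and RN7SL1, an RNA of the signal recognition particle, had 5744. NEAT1, the scaffold RNA of paraspeckles, had 5649.5 over 15 regions, and the annotated ENSG00000277599, ENSG00000278050 and ENSG00000278144, which lie inside NEAT1, had 2309 in 1 shared region. PRRC2C, a protein of stress granules, had 2682.5, EEF2, the translation elongation factor, 2497.5, and ENSG00000291336 had 2359.5. Their upper limits ran from 0.103 for RPPH1 to 0.418 for the genes inside NEAT1 on shares outside the family, and from 2.07 to 8.38 on listed shares. In all, 21 of the 25 genes lower on shares outside the family had 0 fragments, and 3 of 5924 genes (0.0506%) were lower on listed shares, among them 7SK and RN7SK. With 0 fragments a gene could be called lower only from 1932.5 control fragments upward on the first denominator and from 38693 on the second, so no other gene at 0 could be called by either rule.

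The lists of genes that glutamine shortage is known to engage had no fragment at all. Of 38 ATF4 and amino acid response targets 30 were listed, with 9207 control fragments, and 0 of them had a fragment in the glutamine-deficient library. PPP1R15A, which returns translation after stress, had 1116.5 control fragments, GARS1, the glycyl-tRNA synthetase, 862, and SLC7A1, an arginine transporter, 788. Of 30 genes of glutamine use and transport 22 were listed, with 3568.5 control fragments and 0 in the glutamine-deficient library. The transporter SLC38A1 had 1045, the amino acid exchanger SLC7A5 had 505.5 and the glutamine importer SLC1A5 had 276.5. All of these were lower in RPM, as was 99.9% of the list. The medians were −5.76 and −4.38 on the log2(RPM + 1) scale against −3.93 over all genes. With 0 fragments in every member, these medians follow the control RPM and the number of regions. They restate the level in the control library and show no stronger lowering of the lists. At the mean nuclear kept rate only 0.554 and 0.215 fragments would have been found for each list, so 0 was not distinguishable from that rate. 0 members of either list passed on shares by either denominator.

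The 58 listed genes of cytosolic ribosomal proteins had 12792.5 control fragments and 0 in the glutamine-deficient library, where 0.769 would have been found at the nuclear rate. Among them RPL8 had 1378.5 control fragments and RPS4X had 742.5. The structural non-coding RNAs, 14 of 28 listed, had 78991 control fragments and 0 in the glutamine-deficient library, and 5 passed as lower on shares outside the family, against 0.422% of all genes. The nuclear long non-coding RNAs, 6 of 6 listed, had 26934 control fragments and 0 in the glutamine-deficient library, with 3 lower by the same rule. 7SK and RN7SK are 1 region counted for 2 genes, and MALAT1 and TALAM1 share all of theirs. With 0 fragments the call follows from the control level alone, so these numbers restate the level in the control library.

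The markers of the cell line could be checked only in part. Of 8 epithelial carcinoma markers KRT8 alone was listed, with 24 control fragments, and of 5 mesenchymal markers VIM (292) and ZEB1 (19). Of markers of other cells, CSF1R of leukocytes (38.5) and NCAM1 of neurons (63) were listed, and 0 of 4 endothelial, 5 fibroblast and 3 erythroid markers. All had 0 fragments in the glutamine-deficient library, and genes outside the list cannot be read as absent.

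Of the 691 regions that name no gene, 3 had fragments in the glutamine-deficient library. One had 15 against 0, 0.847 RPM against 0.132 RPM, which is the value of a region without fragments in the control. The exact interval of its share ratio begins at 938 outside the family but at 0.741 over the whole libraries, where it includes equal shares. With 0 control fragments this region may be listed only for its glutamine-deficient count. Its values are therefore a description and support no difference between the conditions. The others had 1 fragment each, against 18 and 16. Together with the RAD51B region this was 1 of the 2 regions with fewer than 2 control fragments, and both were the highest counts of the glutamine-deficient library outside the ATF4 family and the mitochondrial genome.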

How the data were processed

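RNA of 2 libraries, 1 glutamine-deficient and 1 control, was analysed from the RPM values that the authors deposited, per the file headers. Alignment was with HISAT2 2.0.5 to hg38, per the submitters' processing notes. The sources used here do not say how regions were called or chosen, or whether counting used strand. One sample label, that of the glutamine-deficient library, points to the glucose column, but the library's own file equals the glutamine column in all 14333 entries.

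RPM rose in steps of 0.0546 (glutamine-deficient) and 0.264 (control) above an offset of 0.5 fragment. Library totals were taken from these steps, and the effect of rounding in them was not tested. Fragments were taken to the nearest 0.5, and 99.97% and 63.3% came out whole (below 1000 RPM within 0.00324 fragment of a step). Entries with equal values for overlapping or neighbouring genes were counted as 1 region. All 5928 gene identifiers were in the name table and 5792 in GENCODE 29. With 1 library a side no count model or p-value was possible. Intervals are Clopper-Pearson or conditional binomial at 95%. Scaling factors alone were taken from edgeR 4.0.16 (TMM) and DESeq2 1.42.0 (median-of-ratios). Python 3.11.15, scipy 1.17.1 and R 4.3.3 were used. Recovery, intervals and calls were run on simulated libraries of equal size with whole fragment counts. Those lack the unequal totals, the many counts of 0 and the steps of 0.5 fragment of this pair. They therefore do not test the present setting.

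Members, gene lists and naming rules were chosen with earlier results of these data known. Named are all mitochondrial genes, nuclear genes with fragments in the glutamine-deficient library, the 15 nuclear genes with the most control fragments and none there, the ATF4 family, and up to 3 members of each list, of which 1 is not reported here. Of the genes lower on shares outside the family, 2 are not named or placed among the 15, and 3 more lie beyond the 15. The parents of the pseudogenes were chosen by sequence after the values were seen.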

Additional observations from a re-analysis of the deposited data

How the results depend on the processing

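No paired analysis was possible because each group has 1 library, and no library could be left out. The choice of denominator changed the most: with listed regions outside the family as denominator, the ratio of the mitochondrial share was 5.37 in place of 0.268, the ratios of MT-ND4 with MT-ND4L, MT-CO2 and MT-CO1 turned to 4.86, 4.59 and 3.05, and 18 genes were higher and 3 lower on shares in place of 3 and 25. The numbers on RPM, 4 higher and 5924 lower, became 13 and 1488 of 1523 tested with TMM and 8 and 1829 of 1858 tested with median-of-ratios, since each scaling changed which of the 5928 genes passed the filter of 1 RPM, and 23 higher with totals without the ATF4 family. On shares, 42 genes were lower at 1.5-fold, 1 was higher and 12 lower at 4-fold, and 1 higher and 16 lower with an interval of 99%. Of the 33 nuclear genes with a fragment, 4 had at least 2 and 1 had at least 5. Changed pseudocounts, filters or offset, the listed region as unit and values as deposited left each number within 1.5 times or its interval. The ratio of the mitochondrial to the nuclear kept rate lay between 12.7, with entries that name no gene counted as nuclear, and 23.8, without RAD51B, but was 156 against nuclear regions above 1000 control fragments only, which hold 1 glutamine-deficient fragment; these alternatives were chosen after seeing the data. Of the other 47 ratios or upper limits of single genes, 44 lay outside the reported interval or side of 2-fold on the listed denominator, all upward, and 0 did when mitochondrial regions were left out of the totals (43 nuclear genes or regions). The cause of these shifts was not tested beyond the totals each alternative uses.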
